A study of Mus musculus with 6 samples.

Results

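The genes described here encode bone morphogenetic proteins (BMPs), which USAG-1 antagonizes, and the related growth differentiation factors (GDFs) and activins. Their receptors, their secreted antagonists and the SMAD proteins that carry the signal are included. In all there were 41 genes named by symbol, in a list chosen with earlier results of these data known. Of these, 38 had a row among the 39234 genes of the count table. BMP3, BMP5 and HJV were not analysed here. Expression was measured by RNA sequencing in HK-2 cells, an immortalized line of human proximal tubular epithelial cells, with 3 libraries from control cells and 3 from cells that overexpressed USAG-1. The labels give the genotype WT for both groups and name no other treatment, and the methods describe overexpression in cells as transient transfection of plasmids. What the control cells received is not given in the labels. Nothing in the labels says that the replicates of a group came from separate cultures, so the p-values measure the spread between these libraries, which may be technical.

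BMP ligands are secreted dimers that bring together type I and type II serine/threonine kinase receptors. BMP receptors phosphorylate SMAD1, SMAD5 and SMAD9, whereas activin receptors phosphorylate SMAD2 and SMAD3, and both sets of SMAD proteins enter the nucleus with SMAD4. Outside the cell, antagonists such as noggin, chordin, gremlin and follistatin bind the ligands and keep them from the receptors. USAG-1, encoded by SOSTDC1, is itself a secreted BMP antagonist of this kind, known in the kidney for binding BMP7, a ligand made by renal tubules.

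The libraries held between 41236194 and 48699471 counts, so that a count of 0 allows a level of up to 0.0608 to 0.0719 CPM (counts scaled to a library total of 1000000) per library, taking 3 counts as the limit. These limits cover counting error only. SOSTDC1 was at 1.89, 1.62 and 1.41 CPM in control cells and at 110.5, 89.5 and 103 CPM in USAG-1-overexpressing cells, as the labels say. Of the markers of proximal tubule, LRP2 had no count in any library and HNF4A had 4 counts in 1 control library. The enzyme gene GGT1 was present at 105 and 153 CPM on average in the control and overexpressing group. GATM was at 5.54 and 4.50 CPM, ANPEP at 2.34 and 2.02 CPM and SLC5A2 at 1.18 and 1.33 CPM, in the same order. These 4 genes, of 10 such markers with a row, reached a mean of 1 CPM in either group. The epithelial markers KRT8 and PAX8 averaged 1081 and 375 CPM in control cells and 1100 and 448 CPM in USAG-1-overexpressing cells. CDH16, of the same list, was lower, at 9.91 and 6.20 CPM on average in the control and overexpressing group. CDH1 had at most 9 counts and PAX2 at most 14 counts in a library. Of the 8 epithelial markers listed, 6 reached a mean of 1 CPM in either group. All 15 genes of a list for T and cytotoxic cells were also detected. Of these, 14 were called lower in USAG-1-overexpressing cells, as were 6.91% of all genes tested. The 15 genes summed to 113 to 128 CPM in control libraries and 29.7 to 38.1 CPM in the others. In the same list IL7R was at 20.3 and 24.4 CPM on average in the control and overexpressing group and GNLY at 24.9 and 1.23 CPM. All 7 myeloid markers listed reached a mean of 1 CPM too. They summed to 49.6 to 107 CPM in control libraries and 38.2 to 70.9 CPM in the others. LYZ (27.6 and 16.6 CPM) and ITGAM (4.33 and 1.88 CPM) were called lower and none higher. S100A9 was highest in control replicate 3, at 47.9 CPM. Of 3 fibroblast markers that reached 1 CPM, LUM was called higher (33.6 and 49.8 CPM). Mitochondrially encoded genes took 4.80 to 5.59% of the counts in control libraries and 1.5 to 1.55% in the others. A fit without the mitochondrially encoded genes was 1 of the alternatives below, and it kept all 11 genes called in the main fit. Any further part of these marker and mitochondrial differences in the results below was not tested. Control replicate 3 stood apart, with a chi-square per degree of freedom of 42.3 and 42.7 against the other control libraries, compared with 6.52 between these. Results that rest on it are given with and without it.

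In these libraries 27 of the 38 genes reached a mean of at least 1 CPM in either group, the limit for expressed genes here. Among them were 6 ligands, 1 activin subunit and all 5 type I and all 3 type II receptors of the list. The others were the co-receptor ENG, the pseudoreceptor BAMBI, 5 antagonists or modulators, the protease BMP1 and all 4 SMAD genes listed. All 15 genes for T and cytotoxic cells reached the same limit, so passing it does not show that HK-2 cells made the transcript. BMP7 had no count in any of the 6 libraries. The activin antagonist follistatin (FST) had 4 counts in 1 overexpressing library and none in the other five. Noggin (NOG) had at most 12 counts and chordin (CHRD) at most 8 counts in a library. The genes BMP6, GDF5, INHA, INHBB, BMPER and FSTL1 were likewise at trace levels, with at most 16 counts in any library. Levels are compared here between groups and not between genes, because gene lengths were not used.

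**Figure D1:**
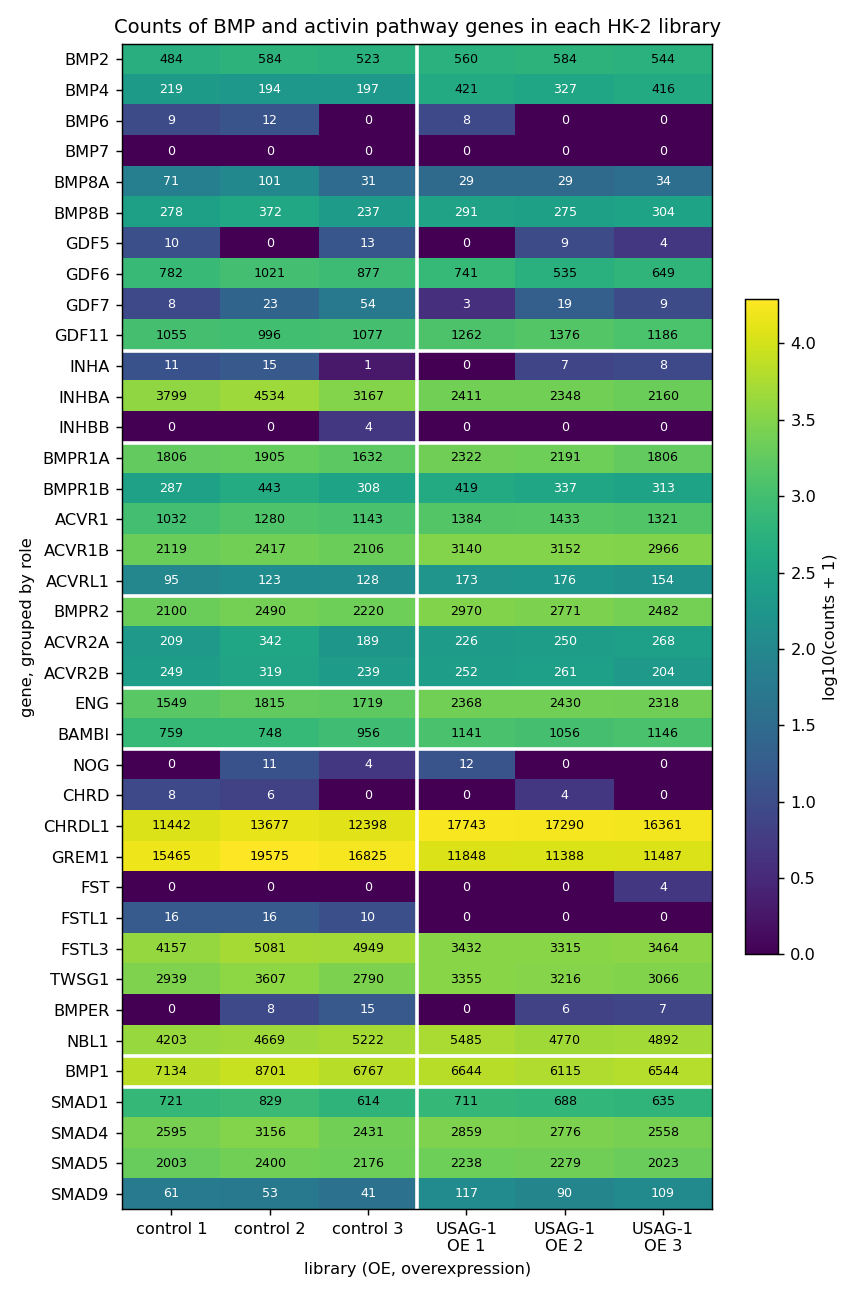
Deposited counts of the 38 genes in the 3 control and 3 USAG-1 overexpression (OE) libraries, colored by log10(counts + 1), with white lines between roles. Rows near 0 in every library include BMP7 and FST, while CHRDL1 and GREM1 had between 11388 and 19575 counts in every library.

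Of the 38 genes, 28 passed the filter on low counts and were tested in a fit across 18188 genes. With a threshold of 0.05 on the Benjamini-Hochberg adjusted p of edgeR's quasi-likelihood test, 11 of the 28 differed, 7 higher and 4 lower in USAG-1-overexpressing cells. Among all genes tested 15.9% were called, 8.95% higher and 6.91% lower, compared with 39.3% of these 28 genes. The list was chosen with earlier results of these data known, so these shares are a description and not a test. The genes that rose were BMP4, ACVR1, ACVR1B, BMPR2, ENG, CHRDL1 and SMAD9, and those that fell were GDF6, INHBA, GREM1 and FSTL3. ACVR1B, BMP4, CHRDL1, ENG, FSTL3, GREM1 and INHBA, 7 of the 11, were called under all 15 alternative analyses and also at a threshold of 0.01, which 6.07% of all genes passed. The ranges of the groups were wholly apart in 15 of the 28 genes, compared with 37.6% of all genes tested. The median log2 fold change was 0.06 over the 28 genes and -0.02 over all genes tested, so the list as a whole lay near 0, with 18 genes positive and 10 negative. Single libraries moved these counts. Leaving out control replicate 3 gave 18 genes, the 11 and FSTL1 among them, where 27% of all genes tested were called. There were 7 genes called without control replicate 2 or without USAG-1 overexpression replicate 2, where the corresponding shares of all genes were 8.74% and 5.98%. Under the alternatives named below this share was 10.2%, 6.92% and 7.09% without control replicate 1 and USAG-1 overexpression replicates 1 and 3, 6.26% without the filter on low counts and 19% with at least 10 counts in every library. It was 20.7% for the Wald test of DESeq2, 16.1% when scaling by library sizes alone and 15.7% or 15.9% with DESeq2's size factors, limma-voom, or SOSTDC1 or the mitochondrially encoded genes left out.

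**Figure D2:**
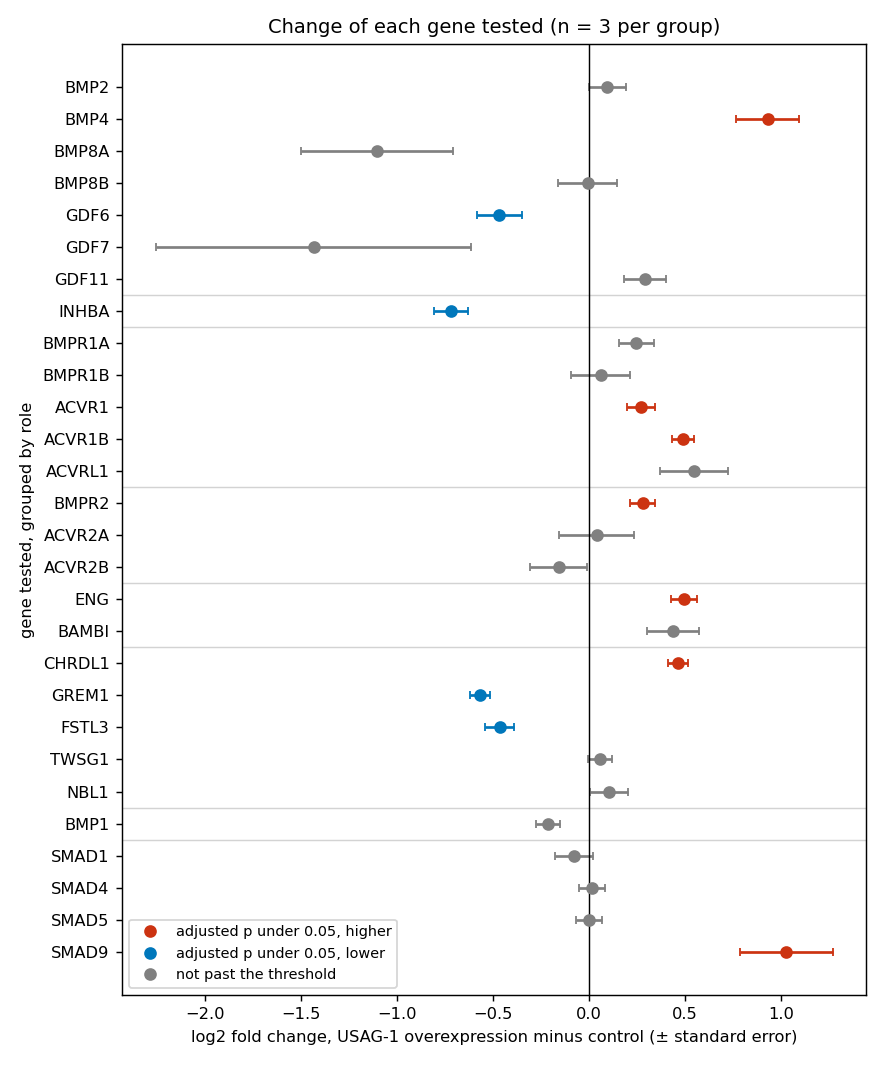
Log2 fold change (USAG-1 overexpression minus control, edgeR) with its standard error for the 28 genes tested, grouped by role, n = 3 libraries per group. Points right of 0 are higher in USAG-1-overexpressing cells. BMP4 (0.93) and SMAD9 (1.03) were the called genes farthest to the right, and INHBA (-0.72) the one farthest to the left.

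Among the ligands, BMP4 rose and GDF6 fell. BMP4 (ENSG00000125378; hg38, chromosome 14, 53949736 to 53956825), a ligand with roles in early kidney and ureter development, was at 5.25, 3.93 and 4.62 CPM in control cells and at 9.17, 7.49 and 9.64 CPM in USAG-1-overexpressing cells. Every overexpressing library lay above every control library. This was a log2 fold change of 0.93 ± 0.16 SE with an adjusted p of 0.00817 by edgeR, or 1.91-fold, and it lay between 0.83 and 1.04 across the alternatives. GDF6 (ENSG00000156466; chromosome 8, 96142333 to 96160806), a ligand of skeletal and eye development, was at 18.7, 20.7 and 20.6 CPM in control cells and at 16.1, 12.3 and 15.0 CPM in USAG-1-overexpressing cells. Both ranges were apart, and the log2 fold change was -0.47 ± 0.12 SE with an adjusted p of 0.0312 by edgeR. GDF6 was past the threshold in 9 of 15 alternatives. It was not, among others, without control replicate 1 (-0.51), control replicate 2 (-0.44), or USAG-1 overexpression replicate 2 (-0.36) or 3 (-0.49), or without the filter on low counts (-0.47).

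The other ligands did not pass the threshold. BMP2 (chromosome 20, 6767686 to 6780246), which shares its receptors with BMP4, was at 11.6, 11.8 and 12.3 CPM in control cells and at 12.2, 13.4 and 12.6 CPM in USAG-1-overexpressing cells, with overlapping groups (0.10 ± 0.10 SE on the log2 scale). The number of BMP4 counts per BMP2 count in the same library, which needs no scaling between libraries, was 0.452, 0.332 and 0.377 in control cells and 0.752, 0.56 and 0.765 in USAG-1-overexpressing cells. GDF11 (chromosome 12, 55743122 to 55757264), an activin-like ligand, was at 25.3, 20.2 and 25.3 CPM in control cells and at 27.5, 31.5 and 27.5 CPM in the others. Its groups did not overlap, but its adjusted p was 0.111 (edgeR, log2 fold change 0.29). Without control replicate 3 it was past the threshold (0.35, adjusted p = 0.0376, edgeR). GDF11 overlaps SARNP on the other strand, a gene with 13030 counts in all against 6952 for GDF11, and how such reads were counted is not given in the sources used here.

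BMP8A and BMP8B are near-identical genes on chromosome 1, separated by 227313 bases, so reads could be split between them. BMP8A also overlaps OXCT2P1 on the same strand, which had 534 counts in all against 295 for BMP8A. BMP8B overlaps PPIE on the other strand, with 13911 counts against 1757 for BMP8B. BMP8A was at 1.70, 2.05 and 0.727 CPM in control cells and at 0.632, 0.664 and 0.788 CPM in USAG-1-overexpressing cells. Control replicate 3 lay within the range of the overexpressing libraries, and the adjusted p was 0.101 (edgeR, -1.10 ± 0.40 SE on the log2 scale). Without that library the log2 fold change was -1.42 and past the threshold (adjusted p = 0.00598, edgeR). BMP8B was at 5.56 to 7.54 CPM in control cells and at 6.30 to 7.04 CPM in the others, with a log2 fold change of -0.01 that changed sign with the setting. GDF7 was just above the filter, with 8, 23 and 54 counts in control libraries and 3, 19 and 9 counts in the overexpressing ones. These values overlapped widely (edgeR: -1.43 ± 0.82 SE on the log2 scale, adjusted p = 0.285).

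Of the activin subunits, INHBA was the one expressed, and it fell. INHBA (ENSG00000122641; chromosome 7, 41667168 to 41705335) encodes the beta A subunit, whose homodimer is activin A. It was at 91.0, 91.9 and 74.3 CPM in control cells and at 52.5, 53.8 and 50.1 CPM in USAG-1-overexpressing cells. The lowest control library was control replicate 3, and it still lay above all overexpressing libraries. INHBA was thus 1.65-fold lower (edgeR: -0.72 ± 0.09 SE on the log2 scale, adjusted p = 0.00206), with a range of -0.81 to -0.67 across the alternatives. The inhibin alpha subunit gene INHA had 11, 15 and 1 counts in control libraries and 0, 7 and 8 counts in the others. It overlaps OBSL1, which had 12231 counts, on the other strand. INHBB, encoding the beta B subunit, had 4 counts in control replicate 3 and none elsewhere.

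All 5 type I receptor genes of the list had positive log2 fold changes, although BMPR1B turned negative in 2 alternatives. Of these 5 genes 2 passed the threshold, which 15.9% of all genes tested did. The type I receptor gene ACVR1C, among the other pathway genes below, had a log2 fold change of -0.27 ± 0.94 SE. It was at 0.273 and 0.224 CPM on average in the control and overexpressing group. ACVR1B (ENSG00000135503; chromosome 12, 51951699 to 51997078), which encodes the activin receptor ALK4, was at 50.8, 48.98 and 49.4 CPM in control cells and at 68.4, 72.2 and 68.7 CPM in USAG-1-overexpressing cells. These groups were far apart relative to their spread, and the log2 fold change was 0.49 ± 0.06 SE with an adjusted p of 0.00159 by edgeR. ACVR1 (ENSG00000115170; chromosome 2, 157736251 to 157876330), encoding the BMP receptor ALK2, was at 24.7, 25.9 and 26.8 CPM in control cells and at 30.1, 32.8 and 30.6 CPM in the others. Its log2 fold change was smaller, 0.27 ± 0.07 SE with an adjusted p of 0.0369 by edgeR. ACVR1 was past the threshold in 8 of 15 alternatives. It was not, among others, without control replicate 1 (0.24) or 2 (0.28), without USAG-1 overexpression replicate 1 (0.30), 2 (0.24) or 3 (0.29), or without the filter on low counts (0.27).

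The other type I receptor genes did not pass the threshold. BMPR1A (chromosome 10, 86756601 to 86932825), encoding the BMP receptor ALK3, was at 43.3, 38.6 and 38.3 CPM in control cells and at 50.6, 50.2 and 41.9 CPM in USAG-1-overexpressing cells (log2 fold change 0.25, adjusted p = 0.11, edgeR). The third overexpressing library lay within the control range. BMPR1B, encoding ALK6, was at 6.87 to 8.98 CPM and 7.25 to 9.13 CPM in the control and overexpressing group. ACVRL1 (chromosome 12, 51906908 to 51923361), encoding ALK1, a receptor best known from endothelial cells, ends 28338 bases before ACVR1B on the same strand. It was at 2.28, 2.49 and 3.00 CPM in control cells and at 3.77, 4.03 and 3.57 CPM in the others, without overlap (edgeR: 0.55 ± 0.18 SE on the log2 scale, adjusted p = 0.0715). Without control replicate 3 it was past the threshold (0.67, adjusted p = 0.0247, edgeR).

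Of the type II receptors, BMPR2 rose. BMPR2 (ENSG00000204217; chromosome 2, 202376327 to 202567751), which encodes the BMP type II receptor, was at 50.3, 50.5 and 52.1 CPM in control cells and at 64.7, 63.5 and 57.5 CPM in USAG-1-overexpressing cells. Both ranges were apart (edgeR: 0.28 ± 0.07 SE on the log2 scale, adjusted p = 0.0246). BMPR2 missed the threshold when control replicate 1 (0.27) or 2 (0.27) or USAG-1 overexpression replicate 1 (0.25) or 2 (0.27) was left out. ACVR2A and ACVR2B encode the activin type II receptors, and their groups overlapped. ACVR2A was at 4.43 to 6.93 CPM in control cells and at 4.92 to 6.21 CPM in the others (0.04 ± 0.20 SE on the log2 scale). It overlaps ORC4 on the other strand, which had 9563 counts in all against 1484 for ACVR2A. ACVR2B was at 5.96, 6.46 and 5.61 CPM in control cells and at 5.49, 5.98 and 4.73 CPM in USAG-1-overexpressing cells (-0.16 ± 0.15 SE on the log2 scale).

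Endoglin (ENG; ENSG00000106991; chromosome 9, 127815013 to 127854658), a co-receptor of the endothelium that binds ligand together with ALK1, rose. It was at 37.1, 36.8 and 40.3 CPM in control cells and at 51.6, 55.7 and 53.7 CPM in USAG-1-overexpressing cells. No control library reached the overexpressing ones, and the change was 1.41-fold (edgeR: 0.49 ± 0.07 SE on the log2 scale, adjusted p = 0.00265). The endothelial markers VWF and CDH5 were near 0, with 4 counts in 1 library for VWF and 12 counts in 1 library for CDH5. PECAM1 was at 4.00 and 2.63 CPM on average in the control and overexpressing group. In the same order TIE1 was at 0.318 and 0.0309 CPM, TEK at 0.211 and 0.46 CPM and CLDN5 at 0.105 and 0.146 CPM. The 6 endothelial markers with a row summed to 3.94 to 6.14 CPM in control libraries and 1.81 to 4.60 CPM in the others. BAMBI (chromosome 10, 28677510 to 28682932), a pseudoreceptor without a kinase domain that dampens BMP and activin signaling, was at 18.2, 15.2 and 22.4 CPM in control cells and at 24.9, 24.2 and 26.6 CPM in USAG-1-overexpressing cells. Its groups did not overlap, but the adjusted p was 0.0638 (edgeR, 0.44 ± 0.14 SE on the log2 scale). BAMBI was past the threshold without control replicate 3 (0.60, adjusted p = 0.00184, edgeR), with DESeq2's Wald test (0.43) and with library sizes alone as the scaling (0.46).

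The secreted antagonists moved in both directions. GREM1 (ENSG00000166923; chromosome 15, 32718004 to 32734583), encoding gremlin, an antagonist of BMP2, BMP4 and BMP7, had 15465, 19575 and 16825 counts in control libraries and 11848, 11388 and 11487 counts in USAG-1-overexpressing ones. Its levels were 370.4, 396.7 and 394.6 CPM in control cells and 258, 261 and 266 CPM in the others, a 1.48-fold fall. The log2 fold change was -0.57 ± 0.05 SE with an adjusted p of 6.63e-04 by edgeR, and it lay between -0.60 and -0.55 across the alternatives. CHRDL1 (ENSG00000101938; chromosome X, 110673856 to 110795819), encoding chordin-like 1, a BMP4 antagonist, went the other way. CHRDL1 was at 274, 277 and 291 CPM in control cells and at 386, 396 and 379 CPM in USAG-1-overexpressing cells (edgeR: 0.46 ± 0.05 SE on the log2 scale, adjusted p = 0.00137). Across the alternatives this change was 0.45 to 0.50.

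Within each library the number of CHRDL1 counts per GREM1 count was 0.74, 0.699 and 0.737 in control cells and 1.5, 1.52 and 1.42 in USAG-1-overexpressing cells. Every overexpressing library thus had a higher ratio than every control library, and the mean went from 0.725 ± 0.023 to 1.48 ± 0.0494 (SD, n = 3 each). The pairs of genes for which such ratios are given were chosen after their values were seen, so no test is attached to them.

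**Figure D3:**
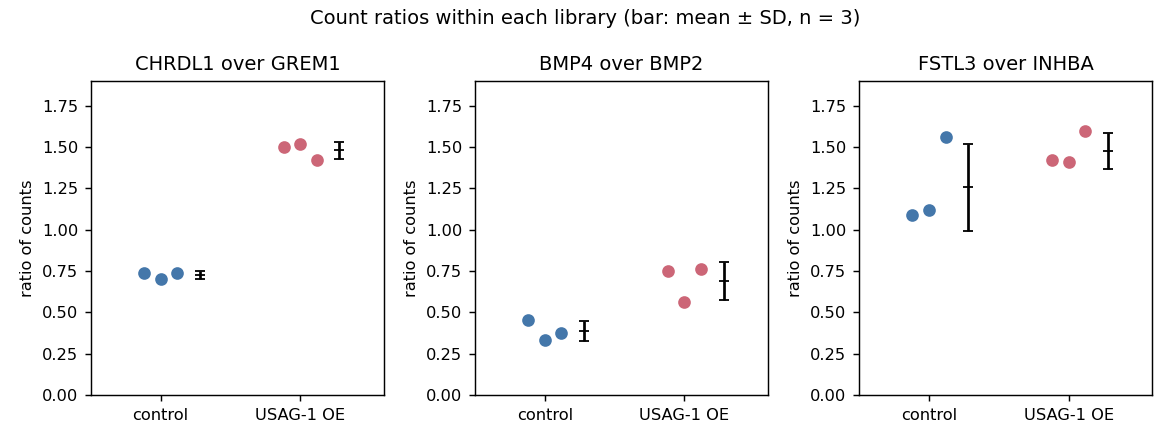
Ratio of the counts of 2 genes within the same library for 3 pairs, with each library as a point and mean ± SD (n = 3) beside it. The ratio of CHRDL1 to GREM1 was 0.699 to 0.74 in control and 1.42 to 1.52 in USAG-1 overexpression (OE) libraries, that of BMP4 to BMP2 was separated too, and that of FSTL3 to INHBA overlapped.

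FSTL3 (ENSG00000070404; chromosome 19, 676392 to 683392), encoding a follistatin-like protein that binds activins, fell. Its level was 99.6, 103 and 116 CPM in control cells and 74.8, 75.9 and 80.3 CPM in USAG-1-overexpressing cells, so that the groups did not overlap (edgeR: -0.46 ± 0.07 SE on the log2 scale, adjusted p = 0.00521). The number of FSTL3 counts per count of its ligand gene INHBA was 1.09, 1.12 and 1.56 in control libraries and 1.42, 1.41 and 1.6 in the others. Control replicate 3 lay within the range of the overexpressing libraries. TWSG1, encoding twisted gastrulation, a protein that acts with chordin, was at 70.4, 73.1 and 65.4 CPM in control cells and at 73.1, 73.7 and 71.0 CPM in USAG-1-overexpressing cells. The estimated log2 fold change was 0.06 ± 0.06 SE.

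NBL1, encoding the DAN antagonist, was at 101, 94.6 and 123 CPM in control cells and at 120, 109 and 113 CPM in USAG-1-overexpressing cells. Control replicate 3 was the highest of all libraries (log2 fold change 0.11, adjusted p = 0.513, edgeR), and without it the log2 fold change was 0.23 (adjusted p = 0.01, edgeR). NBL1 overlaps MICOS10 on the same strand, which had 9028 counts in all against 29241 for NBL1. FSTL1, encoding a secreted follistatin-like glycoprotein, had 16, 16 and 10 counts in control libraries and none in any overexpressing library, and it did not pass the filter on low counts. Its control mean of 0.314 CPM was 4.63 times a limit of 3 counts per library in USAG-1-overexpressing cells. That ratio allows for no error in the control mean, so it is not a lower bound. In alternatives where it entered the fit, it had passed the filter through its control libraries alone or there was no filter, so its calls there are not read as support. Its adjusted p in those edgeR fits ranged from 0.0153 to 0.0575, and it missed the threshold when control replicate 1 (0.0575) or USAG-1 overexpression replicate 2 (0.0515) was left out.

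BMP1 (chromosome 8, 22165140 to 22212324) is not a ligand despite its name, but a metalloprotease that cleaves chordin and procollagens. It was at 171, 176 and 159 CPM in control cells and at 145, 140.0 and 152 CPM in USAG-1-overexpressing cells. Both ranges were apart, and the adjusted p of 0.0547 (edgeR, -0.21 ± 0.06 SE on the log2 scale) missed the threshold. BMP1 passed it without control replicate 3 (-0.25, adjusted p = 0.00379, edgeR), with DESeq2's Wald test (-0.22) and when at least 10 counts were required in every library (-0.22).

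Of the SMAD genes, SMAD9 rose. SMAD9 (ENSG00000120693; chromosome 13, 36844831 to 36920765) encodes a BMP-specific SMAD protein also called SMAD8. It had 61, 53 and 41 counts in control libraries and 117, 90 and 109 counts in USAG-1-overexpressing ones, that is 1.46, 1.07 and 0.962 CPM against 2.55, 2.06 and 2.53 CPM. The groups did not overlap, and the log2 fold change was 1.03 ± 0.24 SE with an adjusted p of 0.0245 by edgeR. The call was held in 10 of 15 alternatives and lost when control replicate 2 (0.97) or USAG-1 overexpression replicate 1 (0.98), 2 (1.12) or 3 (0.99) was left out, and without the filter on low counts (1.03). SMAD1, SMAD4 and SMAD5 overlapped between the groups. SMAD4, the partner of all receptor-activated SMAD proteins, was at 62.2, 64.0 and 57.0 CPM in control cells and at 62.3, 63.6 and 59.3 CPM in the others (0.02 ± 0.07 SE on the log2 scale). SMAD5 was at 48.0, 48.6 and 51.0 CPM in control cells and at 48.7, 52.2 and 46.9 CPM in USAG-1-overexpressing cells (0.00165 ± 0.07 SE on the log2 scale), and SMAD1 had a log2 fold change of -0.08 ± 0.10 SE.

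**Figure D4:**
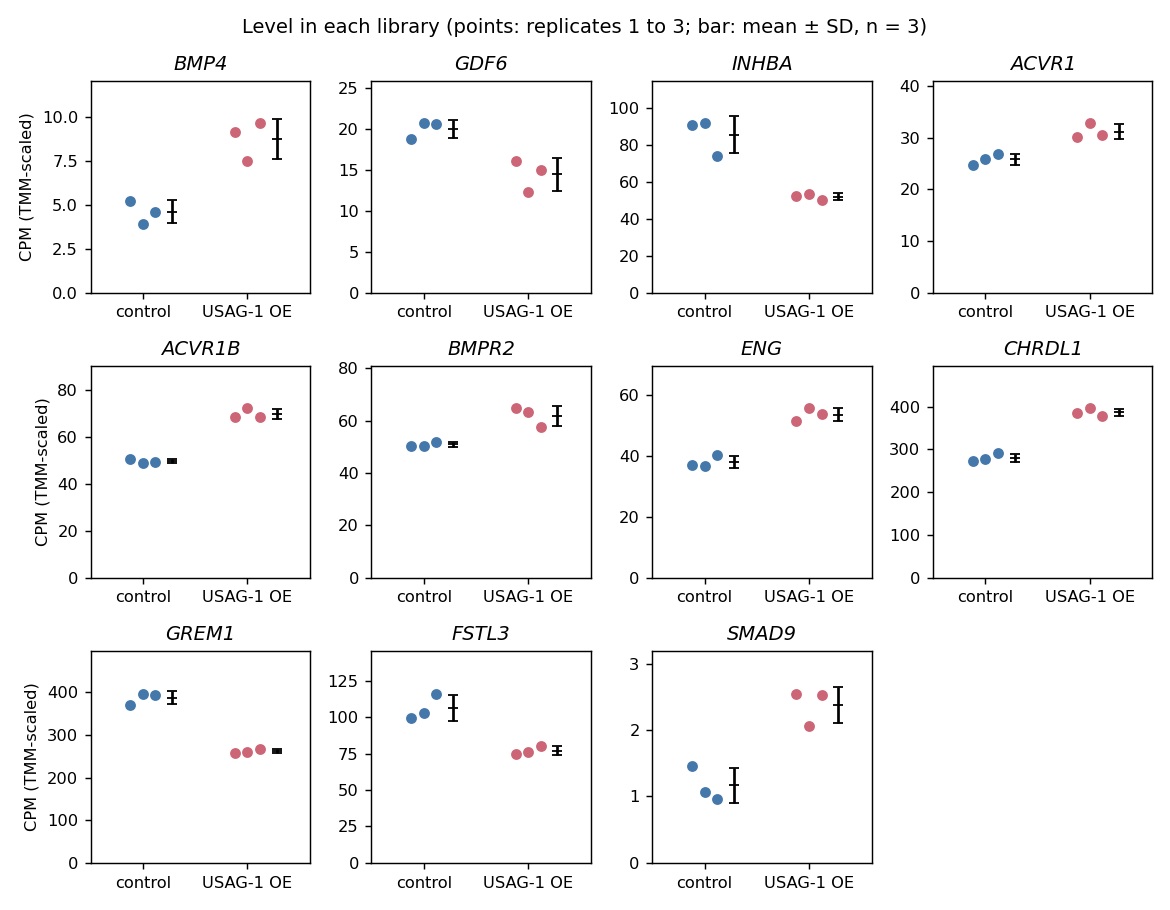
TMM-scaled CPM of the 11 called genes in each library, with mean ± SD (n = 3) beside the points; every axis starts at 0. In each panel the 3 USAG-1 overexpression (OE) libraries lie wholly above or below the 3 control libraries, from SMAD9 (0.962 to 2.55 CPM) to GREM1 (258 to 396.7 CPM).

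A further 62 genes of the same pathway were listed by role, and 56 of them had a row. Of the 36 that passed the filter, 7 were higher and 1 was lower in USAG-1-overexpressing cells (22.2%, against 15.9% of all genes tested). This list too was chosen with earlier results of these data known. Among the other ligands GDF15, a stress-induced member of the family that signals through the receptor GFRAL, was at 37.3, 33.9 and 43.9 CPM in control cells and at 79.4, 78.6 and 84.7 CPM in the others (edgeR: 1.08 ± 0.10 SE on the log2 scale, adjusted p = 5.67e-04). The antagonist CRIM1, a membrane protein that binds BMPs, had 232 ± 10.7 and 303 ± 11.8 CPM (SD, n = 3 each) in the control and overexpressing group, 0.39 higher on the log2 scale (adjusted p = 0.0046, edgeR). For NEO1, encoding neogenin, a receptor that binds BMP co-receptors of the RGM family, the log2 fold change was 0.27 (adjusted p = 0.018, edgeR).

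None of the 4 ligand-processing proteases tested passed the threshold in edgeR's test, nor did SMAD2 (-0.04) or SMAD3 (-0.07), the SMAD proteins of activin signaling. The intracellular regulators TOB1 (0.44) and TGIF1 (-0.23), a repressor of SMAD2 and SMAD3, did, out of 16 tested. This share of 12.5% was below the 15.9% of all genes tested. NEO1, TOB1, TGIF1 and ID3 missed the threshold when any library other than control replicate 3 was left out. Among the 5 BMP-responsive genes tested, ID1 (0.54), ID2 (0.50) and ID3 (0.39), which encode inhibitors of basic helix-loop-helix factors, were higher. MSX1 (-0.09) and ATOH8 (0.05) did not pass the threshold. The share called higher was thus 60% of 5 genes, against 8.95% of all genes tested. ID1, for instance, was at 53.0, 50.8 and 62.4 CPM in control cells and at 78.7, 80.2 and 82.1 CPM in USAG-1-overexpressing cells. The inhibitory SMAD genes SMAD6 (0.11) and SMAD7 (0.14) did not pass it either.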

How the data were processed

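The 6 libraries, 3 of control HK-2 cells and 3 of cells with USAG-1 overexpression, were grouped and numbered by the labels. Organism is given as mouse in the labels, whereas the gene identifiers are human. The authors deposited whole-number counts per gene without normalization, in a table whose name speaks of FPKM. The submitters' processing notes name cutadapt 1.9, FastQC and the build hg38, and the aligner, the counting and the annotation are not given in the sources used here. The labels describe a strand-specific poly(A) library, and the counting of strands is not stated.

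Low counts were removed by filterByExpr of edgeR (4.0.16, in R 4.3.3), which left 18188 genes with 99.92% of the counts. Scaling was by TMM, and the quasi-likelihood test was used without a replicate block, with Benjamini-Hochberg adjustment over all genes tested and a threshold of 0.05. CPM values are on the TMM scale. Standard errors (SE) come from the F statistic, as the absolute log2 fold change over its root. The code was tested on simulated data in which 200 genes were changed. There edgeR recovered 47.9% of changes of 1 and 83.9% of changes of 2 on the log2 scale. Of the calls in the simulation, 8.15% were false for edgeR and for limma-voom and 19% for DESeq2's Wald test. By rule, values in every library are given for each gene called and the 2 genes of each role with the highest mean level, and of the other pathway genes at most 3 called ones per role are named. Values of further members, of further marker genes such as LRP2, HNF4A, VWF and CDH5, and of pathway genes that were not called were added after they were seen. The members and lists were chosen with earlier results of these data known. Alternatives were DESeq2's size factors, library sizes alone, DESeq2's Wald test (1.42.0), limma-voom (3.58.1), other filters, a replicate block, SOSTDC1 or mitochondrially encoded genes left out, and each library left out. No sequences were printed, because no human reference was used here.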

Additional observations from a re-analysis of the deposited data

How the results depend on the processing

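None of the 11 called genes changed direction under any of the 15 alternatives. The number of BMP and activin genes called was 11, and 7 at an adjusted p under 0.01. Leaving out single libraries gave 7 to 18, with 4 to 11 higher and 3 to 7 lower. Over all genes tested 2884 were called, and 1137 (without USAG-1 overexpression replicate 2) to 5091 (without control replicate 3) on leaving out a library. Of the other pathway genes 8 were called, 5 without the filter on low counts and 4 to 16 on leaving out a library. The median log2 fold change of 0.06 was 0.0006 without the filter on low counts, where genes with few counts enter, and 0.0163 to 0.0959 on leaving out a library. The log2 fold change of SOSTDC1 was 5.86 to 6.05 over its alternatives. Expressed genes numbered 27, with 28 at a limit of 0.5 CPM and 24 at 5 CPM.

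Same-numbered libraries of the groups deviated from their group means with correlations of 0.0701, -0.0544 and 0.0371. Not every library correlated best with its own number. These values show no pairing by replicate number, but with 3 libraries per group they cannot exclude one. With a replicate block 10 BMP and activin genes were called (13.1% of all genes tested), 9 of them shared with the 11, without ACVR1 (0.27) and GDF6 (-0.47) and with BAMBI (0.46).

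Sign changes occurred in genes that were not called, and the cause was not tested. On leaving out a library the log2 fold change was -0.108 to 0.1028 for BMP8B, -0.0384 to 0.1883 for BMPR1B, -0.0823 to 0.2514 for ACVR2A, -0.0252 to 0.0503 for SMAD4 and -0.0386 to 0.0392 for SMAD5. BMP8B was also positive with library sizes alone (0.0057) and with a replicate block (0.0022), and SMAD5 negative with DESeq2's size factors (-0.0031), DESeq2's Wald test (-0.0031) and at least 10 counts in every library (-0.0072). Of the 10 genes that were not tested, all but FSTL1 had too few counts for a difference to be given.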
